A study of Mus musculus with 5 samples.

Results

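Oxidative phosphorylation subunits were taken as all probe sets annotated with exactly 1 gene whose symbol named a nuclear-encoded subunit of complexes I to IV or of ATP synthase (Nduf, Sdh, Uqcr and Cyc1, Cox4 to Cox8, Atp5). These were 148 probe sets of 79 genes, of 12393 genes on the array with such probe sets. There were 33 genes of complex I, 4 of complex II, 9 of complex III, 16 of complex IV and 17 of ATP synthase. Ndufb4, Ndufa11 and Ndufs6 lay only on probe sets annotated with several genes and were not members. Ndufab1, a complex I subunit whose symbol the naming pattern did not match, was not a member either.

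The tissue was wild-type mouse pharyngeal arch with the second heart field, dissected at E10.5, in 5 samples that formed 1 group. The embryos were of the 129P2/OlaHsd strain crossed back to C57BL/6 over 2 generations. Each sample was 1 tissue isolate, and its RNA (10 ng) was amplified, labelled with biotin and hybridised to 1 Affymetrix 430A array. The labels do not say whether isolates came from separate litters, so errors and p-values rest on these samples and may not measure spread between litters. The tissue was measured whole, so fewer cells of a type and less RNA per cell cannot be told apart. With 1 group, the design asks what the tissue expresses and how far the samples differ; it holds no treatment or control.

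Oxidative phosphorylation makes ATP on the inner mitochondrial membrane. Complex I takes electrons from NADH and complex II from succinate, complex III passes them to cytochrome c, complex IV passes them to oxygen, and ATP synthase uses the resulting proton gradient. Most subunits are encoded in the nucleus and a few in mitochondrial DNA, and several complex IV subunits and the c subunit of ATP synthase come in isoforms encoded by separate genes. The early embryo is known for high glycolysis, with mitochondrial respiration gaining weight as the heart and other organs form.

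Signals are linear scaled units. A probe set was called above background if its log2 signal exceeded, over the 5 arrays, a level set on each array by genes of olfactory and taste receptors, hair, adult glands, sperm and lymphocyte receptors. That level was a signal of 17.5, 15.8, 18.3, 22.5 and 23.0 in replicates 1 to 5. Excess is the log2 signal minus this level, as mean ± SE, with limma's adjusted p over all probe sets. This SE and p draw on the probe set's own spread between samples and on limma's variance trend over all probe sets. Of 22428 probe sets tested, 50.7% were called, and of 12230 genes 54.8% had a called probe set. The tissue label was checked on 14 genes of arch mesenchyme and second heart field. Of these 10 were called, with Crabp1 (2740.3 ± 355, SD, n = 5), Isl1 (1387 ± 223) and Prrx1 (1063 ± 216) leading, while Tbx1 (28.2 ± 10.9), Alx4 (18.7 ± 12.6), Dlx5 (16.8 ± 9.73) and Hand2 (8.24 ± 6.60) were not called. Markers of other cells were called as well, 5 of 10 erythroid, 11 of 12 neural and 6 of 14 cardiac muscle genes, beside 54.8% of all genes. Array probe sets differ in how well they bind, so signals of different genes do not rank their transcripts.

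Of the 79 subunit genes, 73 (92.4%) were above background, against the 54.8% of all genes. All 131 called probe sets lay above the level in each of the 5 samples. The median excess was 4.69 log2 units over the 148 member probe sets and 0.57 over all probe sets. Complex II, complex III and ATP synthase had every measured gene called, complex I had 32 of 33, and complex IV had 11 of 16. The 6 genes that were not called were Ndufb1, Cox4i2, Cox6a2, Cox7a1, Cox8b and Cox8c. At a stricter level, where 26.4% of genes passed, 69 members were called; Cox6b2, Cox7c, Uqcr11 and Uqcrc1 were lost.

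**Figure D1:**
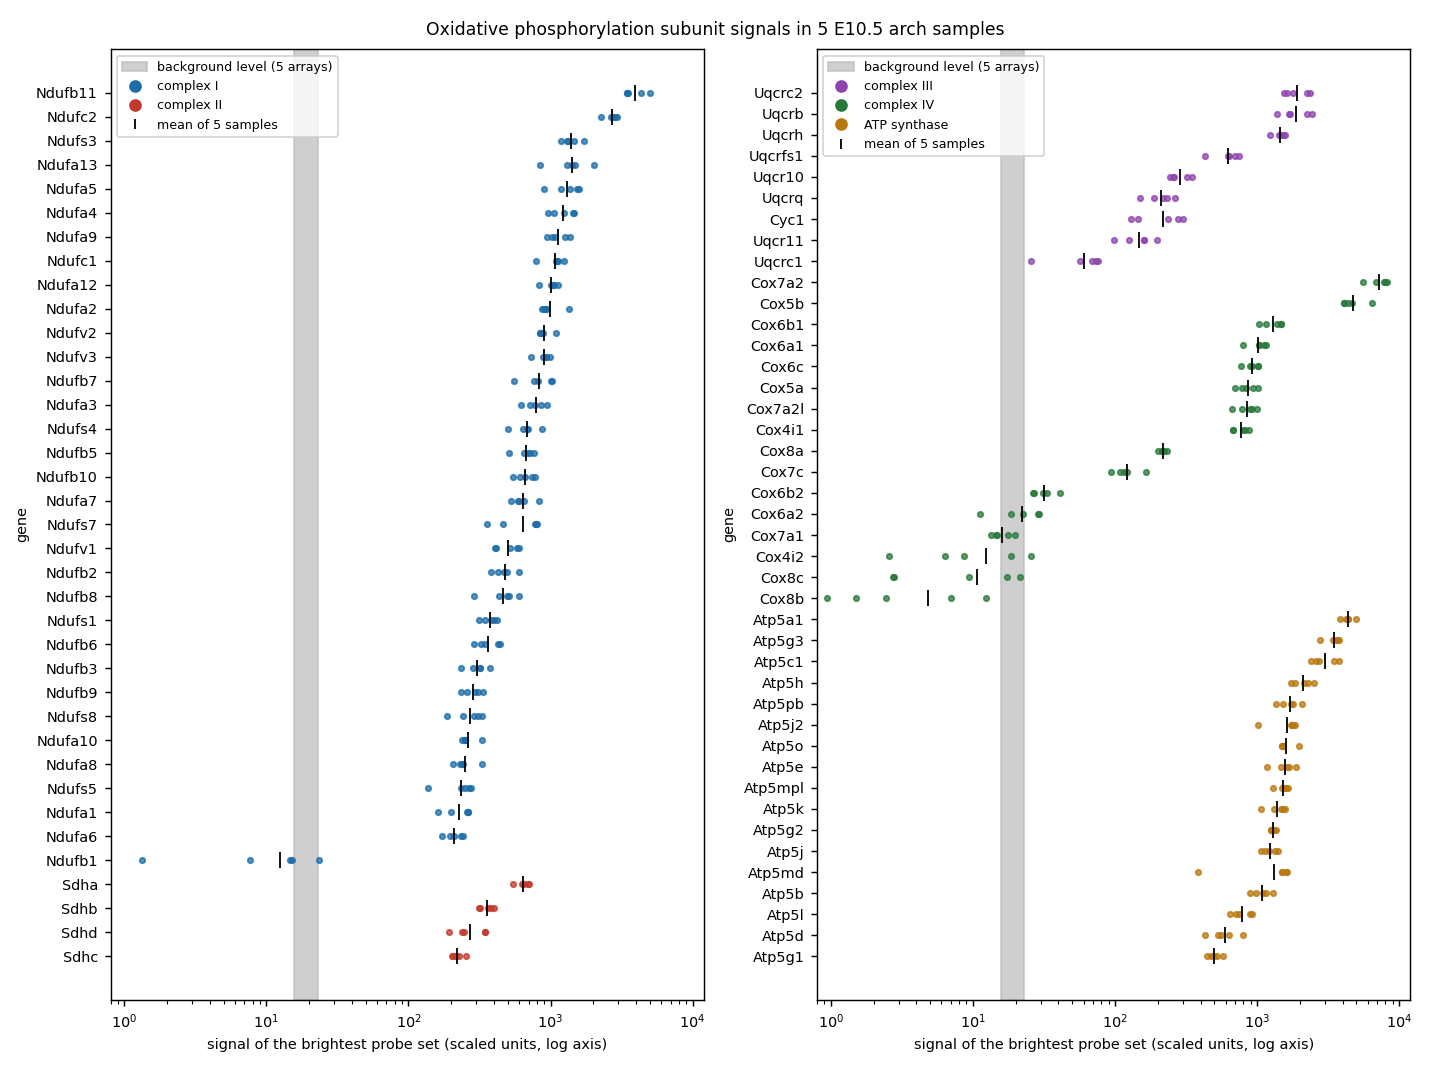
Signal of the brightest probe set of each of the 79 subunit genes, on a log axis, with 1 point per sample and a tick at the mean of 5; the grey band spans the background level of the 5 arrays. All genes but Ndufb1 and the complex IV genes Cox6a2, Cox7a1, Cox4i2, Cox8c and Cox8b have their mean to the right of the band.

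Complex I, the largest complex of the chain, has a hydrophilic arm with flavin and iron-sulphur clusters and a membrane arm. All 6 measured nuclear core subunits were called, with an excess from 3.79 to 6.18 log2 units. Ndufs3, a core subunit of the hydrophilic arm, gave signals of 1335, 1302, 1177, 1458 and 1725 in replicates 1 to 5, an excess of 6.18 ± 0.13 (adjusted p = 5.18e-28, limma). Ndufv1, which binds the flavin and NADH, gave 580.2, 519, 410.3, 403 and 601, and its excess was 4.69 ± 0.16 (adjusted p = 1.40e-22, limma). Replicates 3 and 4 had the lowest values of Ndufv1. Ndufv2, its iron-sulphur partner, gave 856, 838, 878, 840.5 and 1092, with replicate 5 above the other samples. The iron-sulphur subunits Ndufs1, Ndufs7 and Ndufs8 had means of 372 ± 42.0, 637 ± 213 and 271 ± 57.9 (SD, n = 5).

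Of 27 accessory subunits, 26 were called. Ndufb11, an X-linked subunit of the membrane arm, gave 3430.03, 3533, 3464, 4320.2 and 4990.2 in replicates 1 to 5 (excess 7.67 ± 0.11, adjusted p = 3.22e-32, limma). Replicates 4 and 5 were the highest for it. Ndufc2, also of the membrane arm, gave 2918, 2283, 2745, 2845 and 2676, lowest in replicate 2. Ndufa13, known also as GRIM-19, gave 1314, 1493, 1424, 848 and 2036, and its samples spread from low in replicate 4 to high in replicate 5. Ndufa5 gave 1363, 1537, 1179, 906 and 1584, again lowest in replicate 4. Ndufa4, which is named for complex I but is now known as a subunit of complex IV, was counted here with complex I by its symbol and gave 956, 1052, 1249.6, 1466 and 1439, lowest in replicate 1. Ndufs4, needed for a late step of complex I assembly and a Leigh syndrome gene in humans, had a mean of 678 ± 131. The other called accessory subunits had means between 211 (Ndufa6) and 1131 (Ndufa9). Ndufb1, a small membrane-arm subunit, was the exception. Its single probe set gave 1.33, 15.2, 7.72, 14.7 and 23.5, above the level in 1 of the 5 samples (excess -1.12 ± 0.55, adjusted p = 1, limma).

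Complex II, succinate dehydrogenase, also works in the citric acid cycle and is the only complex of the chain encoded wholly in the nucleus. All 4 genes were called. Sdha, the flavoprotein, gave 705, 693, 634, 645 and 540.2 in replicates 1 to 5 (excess 5.06 ± 0.16, adjusted p = 8.58e-24, limma). Sdhb, the iron-sulphur subunit, gave 313, 318, 362, 378 and 400.5 (excess 4.20 ± 0.16). Their SDs between samples were 0.15 and 0.16 log2 units, and Sdha was lowest and Sdhb highest in replicate 5. The membrane anchors Sdhc and Sdhd gave 221 ± 20.0 and 273 ± 67.6. Sdhd spread more, with 240.01, 246, 343, 344 and 192, where replicates 3 and 4 were high and replicate 5 low.

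Complex III, the cytochrome bc1 complex, had all 9 genes called. Of its redox subunits, cytochrome c1, Cyc1, gave 278, 236, 145, 130.3 and 301 in replicates 1 to 5 (excess 3.43 ± 0.19, adjusted p = 5.82e-17, limma). Replicates 3 and 4 lay below the other samples. The Rieske iron-sulphur protein, Uqcrfs1, gave 634, 744, 694, 432 and 628 (excess 5.00 ± 0.17), lowest in replicate 4. Of the large core proteins, Uqcrc2 gave 1796, 2363, 2230.4, 1538 and 1625 (excess 6.62 ± 0.15), while the single probe set of Uqcrc1 gave 75.4, 56.2, 25.7, 69.0 and 74.0 (excess 1.55 ± 0.21, adjusted p = 6.63e-08, limma). Replicate 3 was the low sample for Uqcrc1, and the gene was not called at the stricter level. Among the small subunits, Uqcrb, at the quinone site, had a mean of 1891 ± 428 and Uqcrh, the hinge protein near cytochrome c1, 1444 ± 133. Uqcr10, Uqcrq and Uqcr11 had means of 285 ± 46.0, 210.5 ± 42.8 and 148 ± 37.5.

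Complex IV, cytochrome c oxidase, had 11 of 16 genes called. Its catalytic subunits are mitochondrially encoded, and the nuclear subunits of this list surround them. Cox5b gave 4333, 4642, 4064, 4071 and 6425 in replicates 1 to 5 (excess 7.92 ± 0.12, adjusted p = 4.02e-32, limma), highest in replicate 5. Cox5a and Cox6c had means of 856 ± 127 and 918 ± 101. Cox7a2l, known as a supercomplex assembly factor, had a mean of 852 ± 133. Cox7c gave 94.0, 121, 165, 108 and 115 (excess 2.63 ± 0.18).

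Several complex IV subunits are encoded by a widely expressed gene and by a gene restricted to some tissues. All 6 measured genes listed as widely expressed were called, and 1 of 6 restricted genes was, beside 54.8% of all genes. The widely expressed genes counted include Cox7a2l, which is not paired with a restricted gene here. Cox7a2, the widely expressed form of subunit VIIa, gave 6908, 5554, 7776, 8163 and 7899 in replicates 1 to 5 (excess 8.55 ± 0.10, adjusted p = 4.61e-34, limma). Cox7a1, its heart and skeletal muscle form, gave 14.8, 14.5, 13.5, 19.8 and 17.7 (excess -0.27 ± 0.32, adjusted p = 1, limma). The former lay far above the level in every sample and the latter below it in every sample. Cox6a1 gave 1027, 1111, 1026, 791 and 1146 (excess 5.72 ± 0.15), and its muscle form Cox6a2 gave 22.5, 11.2, 29.0, 28.7 and 18.5 (excess 0.12 ± 0.28, adjusted p = 0.615, limma), around the level. Cox8a gave 212, 231, 221, 202 and 215 (excess 3.49 ± 0.17), with the samples close together. Its muscle form Cox8b gave 0.940, 7.06, 2.44, 1.50 and 12.3 and its testis form Cox8c gave 9.32, 2.75, 17.3, 21.3 and 2.79. Cox4i1 gave 680.04, 822, 793, 681 and 878 (excess 5.32 ± 0.15). Cox4i2, the form known from lung and from low oxygen, gave 6.37, 8.59, 2.55, 25.5 and 18.7 (excess -1.06 ± 0.51), above the level in replicate 4 alone. Cox6b1 gave 1377, 1160.2, 1462, 1026 and 1473 (excess 6.07 ± 0.14). Cox6b2, known from testis, was the restricted gene that passed, with 33.1, 41.0, 26.9, 31.1 and 26.3 (excess 0.71 ± 0.23, adjusted p = 0.00519, limma), and it was not called at the stricter level. Of 14 cardiac muscle markers 6 were called (42.9%, against 54.8% of all genes), led by Actc1 (156 ± 24.1), Myl4 (134 ± 26.3) and Tnnc1 (68.7 ± 11). Summed signals of the list ran from 498 to 676 in the 5 samples. Of the uncalled markers, Ryr2 (25.9 ± 7.14), Myh7 (22.6 ± 19.9), Tnni1 (21.3 ± 9.52) and Nppa (20.9 ± 6.13) had means around the level. Myl2 (14.9 ± 7.73), Myl3 (9.93 ± 3.50), Nkx2-5 (5.09 ± 3.35) and Myh6 (2.97 ± 2.64) had lower means.

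**Figure D2:**
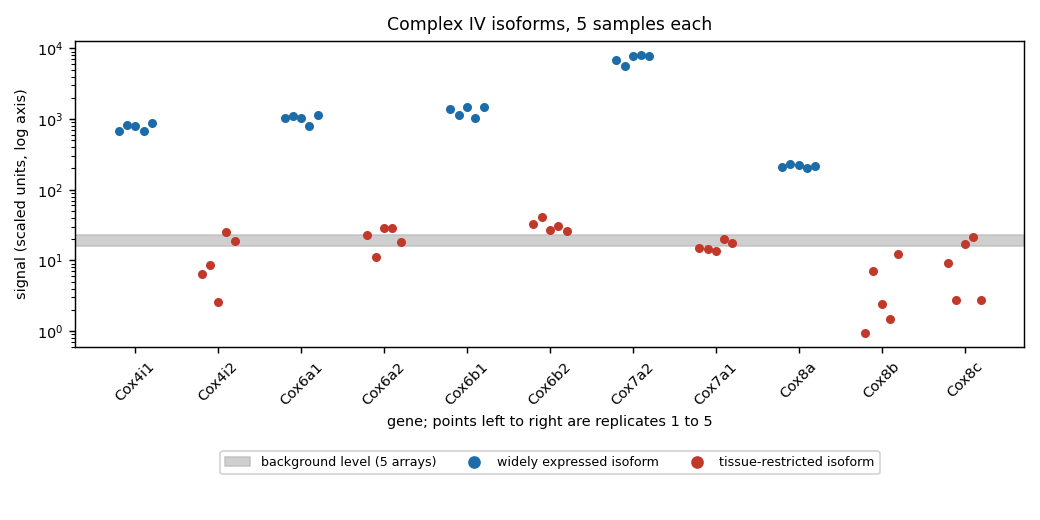
Signal (log axis) of the brightest probe set of complex IV isoform genes in replicates 1 to 5, with widely expressed forms in blue, tissue-restricted forms in red and the background level of the 5 arrays as a grey band. The blue points all lie above 202, the lowest value of Cox8a, or at it, and the red points all lie at or below 41.0, the highest value of Cox6b2.

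Promoters of called and uncalled isoform genes are printed so that their letters can be read beside the signals. These 5 were picked with their motifs in view, Cox6a1 because its promoter held motifs, while the Cox6b1 and Cox6b2 pair was looked at and is not printed, so they do not stand for the other isoform genes. RefSeq promoter sequences (GRCm38.p6, 250 bases before to 50 after the annotated start) matched 64 of the 79 genes, with 69 promoters. The first 260 bases are printed 5′ to 3′ on the strand of the gene, and capitals mark searched motifs. The motifs were GCATGCGC (the inner part of the NRF-1 motif; the full motif is these letters with GC before them), CCGGAAG (GABP, an ETS factor), AAGATGGCG (YY1), TCAAGGTCA (estrogen-related receptors) and TATAAA, each on both strands.
Cox8a (chr19:7217607-7217866, minus strand): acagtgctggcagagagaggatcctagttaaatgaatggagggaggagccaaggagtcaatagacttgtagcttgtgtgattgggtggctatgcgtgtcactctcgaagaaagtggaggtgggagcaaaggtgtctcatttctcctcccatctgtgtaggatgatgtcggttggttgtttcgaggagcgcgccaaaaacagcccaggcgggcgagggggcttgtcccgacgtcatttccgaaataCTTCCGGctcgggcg
Cox8b (chr7:140900437-140900696, minus strand): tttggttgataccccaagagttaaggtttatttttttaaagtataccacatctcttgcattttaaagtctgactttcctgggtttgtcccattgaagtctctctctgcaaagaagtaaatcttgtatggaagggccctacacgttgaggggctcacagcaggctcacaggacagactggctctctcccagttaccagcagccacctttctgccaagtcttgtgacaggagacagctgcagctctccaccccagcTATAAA
Cox7a2 (chr9:79759844-79760103, minus strand): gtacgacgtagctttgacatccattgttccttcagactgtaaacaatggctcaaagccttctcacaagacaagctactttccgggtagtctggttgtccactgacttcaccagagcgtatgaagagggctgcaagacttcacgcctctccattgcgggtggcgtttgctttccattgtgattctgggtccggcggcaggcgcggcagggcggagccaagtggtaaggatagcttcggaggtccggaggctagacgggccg
Cox7a1 (chr7:30183921-30184180, plus strand): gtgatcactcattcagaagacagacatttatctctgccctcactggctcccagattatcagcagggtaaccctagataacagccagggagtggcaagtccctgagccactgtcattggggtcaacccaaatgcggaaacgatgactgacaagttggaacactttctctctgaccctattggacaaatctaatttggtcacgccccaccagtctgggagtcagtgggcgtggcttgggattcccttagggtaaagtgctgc
Cox6a1 (chr5:115348949-115349208, minus strand): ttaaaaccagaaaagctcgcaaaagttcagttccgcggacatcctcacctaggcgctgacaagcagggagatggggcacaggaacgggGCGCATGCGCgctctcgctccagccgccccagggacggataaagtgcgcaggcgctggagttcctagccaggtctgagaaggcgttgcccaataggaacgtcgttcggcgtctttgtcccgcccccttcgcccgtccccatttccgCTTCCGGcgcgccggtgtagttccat
The Cox8a promoter held 19 CpG dinucleotides in 300 bases and that of Cox8b 2. The Cox7a2 promoter held 20 and that of Cox7a1 7. Of the 6 uncalled genes 3 had a matched promoter, namely Cox8b, Cox7a1 and Ndufb1, and that of Ndufb1 held 29. Over promoters of called members the median was 19, with 8 for Ndufc2 and 10 for Cox6b2. CpG counts were not tested against the calls. Cox8a had the GABP motif on its reverse strand (CTTCCGG) at -5 from the start and again at 33, beyond the printed stretch. Cox8b had TATAAA at 5 after the annotated start. Cox6a1, with 32 CpG, had the full NRF-1 motif at -162 and the GABP motif at -16. Cox7a2, called with an excess of 8.55, and Cox7a1, not called, held none of these motifs, which says nothing of the factors.

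Over the 69 member promoters, GCATGCGC was found in 9 (13.0%), against 4.29% of 12559 promoters of genes on the array and 2.71% of all 32851. The full NRF-1 motif was in 4 (5.80%), those of Atp5g2, Atp5k, Cox6a1 and Uqcrc1, against 1.60% for array genes. CCGGAAG was in 17 (24.6%) against 14.0%, AAGATGGCG in 6 (8.70%) against 2.31%, and TCAAGGTCA in 2 (2.90%) against 0.287%. TATAAA was in 8 (11.6%) against 9.80%. The median CpG count was 19 and 17. These are letter matches described without a test, and a match is not a bound site.

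ATP synthase had all 17 genes called, each also at the stricter level. The F1 head makes ATP: its alpha subunit gene Atp5a1 gave 4256, 4389, 3805, 4332 and 4984 in replicates 1 to 5 (excess 7.82 ± 0.12, adjusted p = 2.99e-32, limma), with the samples close together. The catalytic beta subunit gene Atp5b gave 989, 892, 1104, 1155 and 1295 (excess 5.81 ± 0.14). The gene of the rotating gamma subunit, Atp5c1, gave 2407, 2579, 2725, 3502 and 3794, where replicates 4 and 5 were high. Delta and epsilon, Atp5d and Atp5e, had means of 590.2 ± 138 and 1567 ± 263.

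The c ring turns with the proton flow, and Atp5g1, Atp5g2 and Atp5g3 encode the same mature c subunit with different import sequences. All 3 were called. Atp5g3 gave 3766, 2757, 3444, 3659 and 3652, lowest in replicate 2. Atp5g2 gave 1307, 1349, 1259, 1277 and 1246 and varied least of the called members, with an SD of 0.05 log2 units. Atp5g1 had a mean of 501 ± 48.8. The stalk that holds the head in place was represented by Atp5pb (1696 ± 269), Atp5h (2097 ± 321), Atp5j (1234 ± 141) and Atp5o, the oligomycin sensitivity protein, with 1529.6, 1496, 1501, 1521 and 1984. Replicate 5 stood above the other samples for Atp5o. Of the small membrane subunits, Atp5j2 gave 1849, 1798, 1729, 1021 and 1772, low in replicate 4. Atp5md gave 386, 1491, 1624, 1509 and 1596, low in replicate 1 alone. Atp5k, Atp5l and Atp5mpl had means of 1392 ± 208, 782 ± 120.2 and 1522 ± 136.

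Of the 79 genes 43 had 2 or more probe sets. In 34 of them every probe set was called, and in 9 the probe sets lay on both sides of the call. The 11 uncalled probe sets of these 9 genes, like the 6 of the uncalled genes, all had names ending in plain _at. Of the 70 plain member probe sets 53 (75.7%) were called, against 46.8% of all plain probe sets. Every one of the 37 _a_at, 15 _s_at and 26 _x_at member probe sets was called, against 56.3%, 65.1% and 62.2% of all probe sets of these kinds. In Affymetrix naming _a_at probe sets match several transcripts of the same gene. Probes of _s_at sets are shared between transcripts that can come from different genes, and _x_at sets hold probes that may bind other sequences. Subunit genes of this pathway have many processed pseudogenes, and cross-binding was not tested. For Uqcrq 1 of 4 probe sets was called. Its _s_at probe set gave 218, 233, 188, 151 and 263 in replicates 1 to 5, while its other 3 had means of 8.31 ± 2.62, 9.93 ± 7.42 and 1.87 ± 2.23. For Cox5b 5 of 6 probe sets were called, with means from 42.4 to 4707, and the sixth gave 8.70 ± 6.20. Among the others, Ndufb9 had means of 286 ± 41.5 and 246 ± 33.5 beside 2.20 ± 1.98, and Ndufa10 263 ± 36.8 beside 7.50 ± 5.56. Atp5g2 (15.0 ± 6.22), Ndufa12 (11.6 ± 6.06), Uqcr10 (24.2 ± 8.31), Cox7c (10.1 ± 7.01) and Cox8a (8.14 ± 4.21) each had 1 uncalled probe set.

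**Figure D3:**
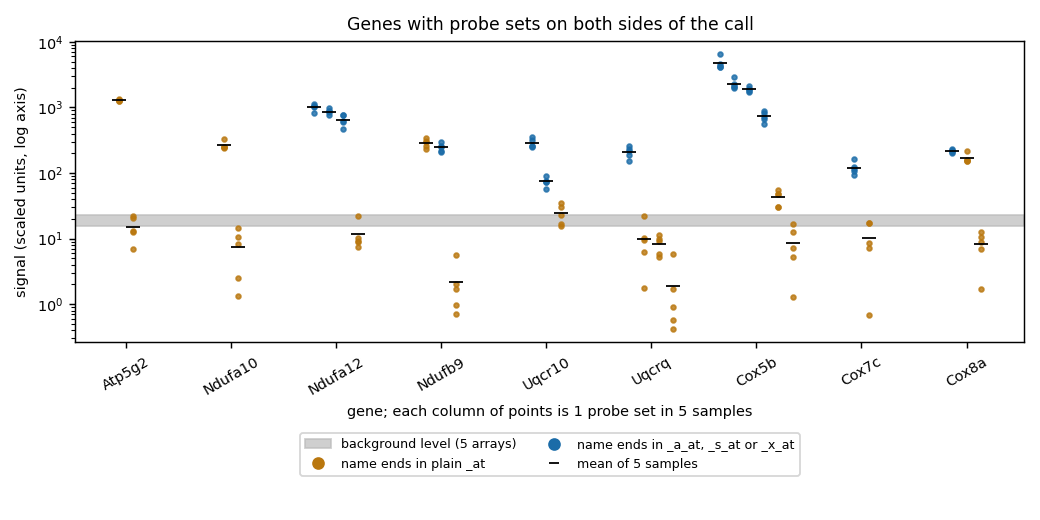
Signals (log axis) of every probe set of the 9 genes with probe sets on both sides of the call; each column of 5 points is 1 probe set in the 5 samples, with its mean as a black dash, plain _at names in orange, other names in blue and the background level in grey. The columns at or below the band are all orange.

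Spread between samples was taken probe set by probe set. Over the 133 member probe sets with a mean above the level, the median SD was 0.25 log2 units, against 0.32 over all 11731 such probe sets. Within the middle range of member signals, 244 to 1120, it was 0.23 for 67 member probe sets and 0.26 for 2649 of all. In an F test of variance against limma's trend, 0 of the 133 passed after adjustment, and 0.111% of all did. With 5 samples this test can miss larger spreads, so the 0 does not show that members vary little. At an unadjusted p below 0.05 there were 7 members (5.26%), against 5.26% of all. The lowest adjusted p was 0.0936, for Atp5md, whose variance was 14.3 times the trend. Without replicate 2 it passed, the only member to do so, with 28 of all probe sets passing against 13. An _x_at probe set of Ndufv2 came next, with 522, 325, 519, 127 and 555 in replicates 1 to 5 and 10.3 times the trend (adjusted p = 0.265, limma). Its low value was in replicate 4, where the plain probe set of Ndufv2 gave 840.5. An _x_at probe set of Cox5a gave 473, 562, 567, 232 and 253, low in replicates 4 and 5, while its plain probe set gave 698, 840.4, 783, 1020.5 and 940.3, with its highest values in those samples. Other large SDs were those of Uqcrc1 (0.65), a dim probe set of Ndufs4 (0.61), Cox6a2 (0.56), Cyc1 (0.55) and Ndufs7 (0.55).

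Each probe set's log2 signal was taken relative to its own mean over the samples. The median over members was -0.06, 0.01, 0.03, -0.12 and 0.20 in replicates 1 to 5, and over all probe sets above the level it was -0.00, 0.02, 0.00, 0.01 and 0.04. Among the member medians replicate 5 stood highest and replicate 4 lowest, 0.32 apart. Without replicate 5 the highest and lowest of the other medians were 0.14 apart. Replicate 5 was the highest sample for 72 of 133 member probe sets (54.1%), against 22.6% of all. Replicate 4 was the lowest for 54 (40.6%), against 22.6%. With 1 probe set per gene, replicate 5 was highest for 45 of 74 genes (60.8% against 23.9% of all) and replicate 4 lowest for 30 (40.5% against 23.4%). The probe sets share their 5 arrays, so these are descriptions with no test.

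The complexes did not all follow this order. Complex I had the widest swing, from -0.16 in replicate 4 to 0.29 in replicate 5, and replicate 5 was the highest sample for 42 of its 61 probe sets. ATP synthase ran from -0.07 to 0.20 and complex IV from -0.12 to 0.15 in the same samples. ATP synthase also stood at -0.07 in replicate 1. Complex III, with 13 probe sets, was highest in replicate 2 (0.16) and stood at 0.03 in replicate 5. Complex II, with 7, was -0.10 in replicate 5 and -0.15 in replicate 1. Differences between complexes were not tested. Erythroid genes had medians of -0.13, -0.10, 0.32, -0.49 and 0.47 in replicates 1 to 5, and neural genes 0.10, 0.02, 0.31, -0.53 and 0.11. They were taken over 8 erythroid and 11 neural genes with a mean above the level. Of the 8 erythroid genes 5 were called, while Alas2, Klf1 and Gata1 lay near the level. Both lists were lowest in replicate 4, and the erythroid list was highest in replicate 5. Summed over all measured genes, erythroid signals ran from 10509 to 19123 and neural signals from 4082 to 7500.3, each over the 5 samples. The erythroid genes were led by the embryonic globins Hbb-y (5639 ± 705) and Hbb-bh1 (4889 ± 1839) and the transferrin receptor Tfrc (2118 ± 247), which other cells also express. The adult globin Hba-a1 gave 3.75 ± 3.91, far below the level. Lists were read only from probe sets annotated with 1 gene, so any that Hba-a1 shares with another globin were not read. The neural genes were led by Stmn3 (1463 ± 411), Nefl (783 ± 170.3) and Stmn2 (754 ± 209), all known from neurons, and Sox1 (1.19 ± 0.755) was the 1 neural gene not called. Cardiac muscle genes (9 with a mean above the level, of which 6 were called) had medians of -0.12, 0.17, -0.34, 0.04 and 0.32. The part of these cell types in the subunit signals was not tested.

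**Figure D4:**
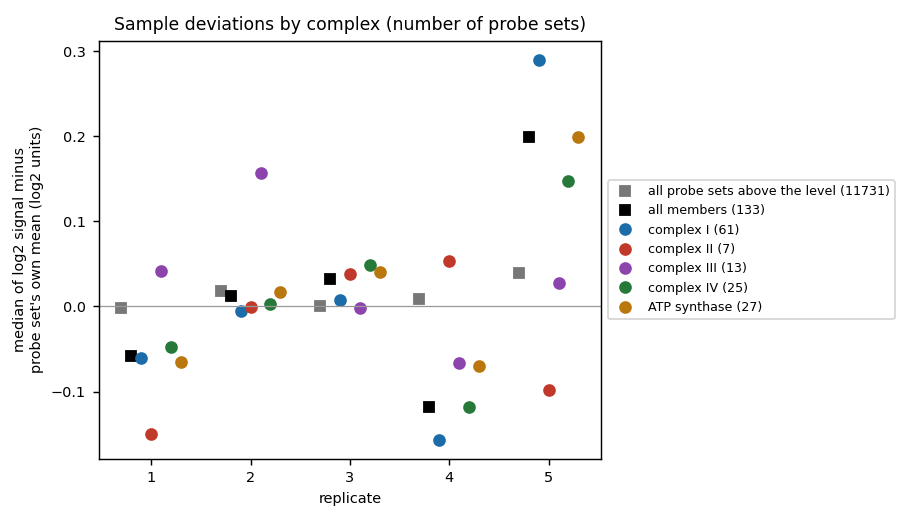
Median over probe sets of log2 signal minus the probe set's own mean (log2 units), by replicate, for each complex, all members and all probe sets above the level, with the number of probe sets in the key. Complex I, complex IV and ATP synthase are lowest in replicate 4 and highest in replicate 5, with all members at -0.12 and 0.20. ATP synthase is nearly as low in replicate 1. The medians of all probe sets stay within 0.04 of 0.

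The place of replicate 4 differed by kind of probe set, a split chosen after the values were seen and not tested. For the 55 plain _at member probe sets the median in replicate 4 was -0.00, while it was -0.27 for 37 _a_at, -0.13 for 15 _s_at and -0.19 for 26 _x_at sets. Over all probe sets above the level the values in replicate 4 were 0.01, 0.02, -0.00 and -0.06. The high place of replicate 5 was seen in all 4 kinds, with 0.20, 0.22, 0.16 and 0.20. The same held within genes. In 30 member genes with both kinds above the level, the other probe sets deviated less upward or further downward than the plain ones in 22 genes in replicate 4 (73.3%), with a median difference of -0.26. Over 1486 such genes in all it was 52.8%, with -0.03. In replicate 1 the member genes went the other way, with 8 of 30 and a median of 0.18, against 0.04 for all genes. The widest gaps in replicate 4 were those of Ndufv2 (-1.10), Ndufa5 (-1.01), Cox5a (-0.79) and Atp5pb (-0.66), chosen after their values were seen. For Ndufa5 the _a_at set gave 1363, 1537, 1179, 906 and 1584 in replicates 1 to 5, lowest in replicate 4, and the plain set 429, 334, 435, 640.5 and 478, highest there. So 2 probe sets of the same gene put the same sample at opposite ends.

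**Figure D5:**
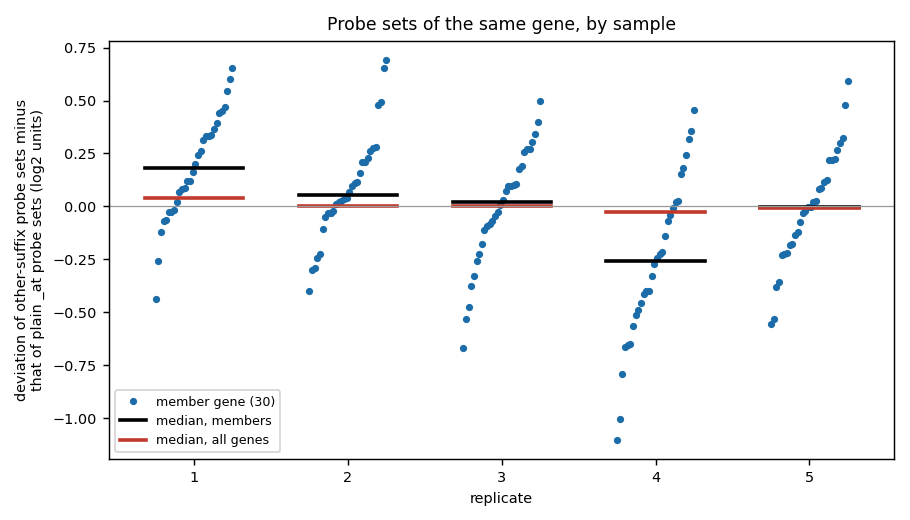
For each replicate, 30 member genes (points, sorted) with the deviation of their _a_at, _s_at or _x_at probe sets minus that of their plain _at probe sets, in log2 units, with the member median in black and the median of 1486 genes in red. The black line is lowest in replicate 4, at -0.26, and highest in replicate 1, at 0.18; the red line stays within 0.04 of 0.

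Other genes of the pathway were read from lists, whose counts stand beside the 54.8% of all genes that were called. Assembly factors help build the complexes without staying in them, and their list also held Lrpprc, which acts on mitochondrial mRNA. All 34 measured genes of this list were called, with a median excess of 2.52 by the brightest probe set. By the same measure the median was 5.32 for the 79 members and 0.94 over all genes. The list was led by Cox20 (717 ± 37.0), Coa3 (462 ± 57.2) and Coa5 (379 ± 82.9), all of complex IV, and Sdhaf4 (283 ± 74.1) of complex II. At the stricter level 10 of the 34 were called, where 26.4% of all genes were. Of 15 genes listed as carriers and channels 12 were called (80.0%). Among them were the channels Vdac1 (6692 ± 1253) and Vdac2 (1412 ± 120.2) and the ADP/ATP exchangers Slc25a5 (3583 ± 871) and Slc25a4 (2869.9 ± 383). The list also held the complex I subunit Ndufab1 (557 ± 103) and Dmac2l (45.7 ± 16.6), both called and neither a carrier or channel. The somatic cytochrome c gene Cycs gave 1366 ± 182 and its testis form Cyct 16.8 ± 15.7, and Ucp1 (12.2 ± 6.14) and Ucp3 (15.4 ± 7.56), uncoupling proteins, were not called either; Cycs, Cyct and the uncoupling genes were chosen after their values were seen. The 1 probe set of a mitochondrially encoded subunit, ND5 of complex I, gave 2175, 1449, 2396, 1301 and 2032 in replicates 1 to 5, lowest in replicate 4.

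Of 16 transcriptional regulators tied to these genes 11 were called (68.8%), against 54.8% of all genes. Those of the NRF-2 (GABP) complex were Gabpa (177 ± 11.6, excess 3.20 ± 0.17) and Gabpb1 (865 ± 55.6, excess 5.49 ± 0.15), and NRF-1 itself, Nrf1, gave 92.1 ± 9.96 (excess 2.26 ± 0.18). Yy1 (772 ± 227), Sp1 (441 ± 69.8), Creb1 (159 ± 30), Nfe2l1 (189 ± 33.7), Nfe2l2 (97.4 ± 14.5) and Myc (49.2 ± 15.1) were called too. Among the PGC-1 coactivators Pprc1 (112 ± 29.8, excess 2.51 ± 0.19) was called, Ppargc1a lay just above the level (28.7 ± 6.21, excess 0.55 ± 0.23, adjusted p = 0.0254, limma), and Ppargc1b (11.8 ± 12.8) was not called. The estrogen-related receptors Esrra (11.7 ± 9.90), Esrrb (7.84 ± 2.63) and Esrrg (10.4 ± 8.96) and the fatty acid receptor Ppara (1.23 ± 0.663) were not called, and a probe set that binds poorly gives the same reading. Of 15 genes of mitochondrial DNA upkeep and transcription 11 were called (73.3%, against 54.8% of all genes). Ssbp1 (836 ± 73.2), Rrm2b (318 ± 34.0), the mitochondrial transcription factor Tfam (207 ± 5.92) and Tefm (188 ± 31.9) led. Of 22 citric acid cycle and pyruvate dehydrogenase genes 20 were called, with citrate synthase, Cs (2168 ± 383), Mdh2 (1244 ± 114), Sucla2 (1035 ± 88.8) and Idh3g (996 ± 164) leading. Of 17 glycolysis genes 15 were called, led by Slc2a1, which imports glucose (3709 ± 875), Pgk1 (3268 ± 350.3), Ldha (2137 ± 375) and Pgam1 (1491 ± 429.7). The glycolysis genes above the level were lowest in replicate 3, with a median of -0.40, where the subunits stood at 0.03.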

How the data were processed

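The authors deposited intensity values, 1 linear signal per probe set and array, made with GCOS per the submitters' processing notes; its version and settings are not given in the sources used here. After trimming 2% of probe sets at each end, every array had a mean signal of 149.98. The 64 control probe sets were left out. Symbols came from the platform annotation, updated with RefSeq (GRCm38.p6) through Entrez identifiers, which matched 20351 of 20380 single-gene probe sets.

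Signals were floored at 1 and put on the log2 scale. The level was the 95th percentile over 198 probe sets of 163 genes on each array. A broader pattern that also took in casein kinases and interferon receptors (31 probe sets), which are widely expressed, gave the stricter level, 109 to 143 across arrays. Detection was tested in R 4.3.3 with limma 3.58.1 (lmFit, eBayes with trend and robust options, one-sided, Benjamini-Hochberg adjusted p below 0.05 over 22428 probe sets), and a gene was called if any of its probe sets was. Elsewhere a gene stands by its brightest probe set. Variance was tested over 11731 probe sets. Both tests were tested on simulated data; the simulation was revised once after its first output, with the tests unchanged, and in it false calls of variance exceeded the nominal rate, mostly at low signal. In that simulation the variance test also missed many probe sets that had been given a larger spread. The number of arrays limits the precision.

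Members, lists and named genes were chosen with earlier results of these data known. Subunit roles, the split by probe set name, medians by sample over genes and lists, the SD at like signal, and the motifs and printed promoters were chosen after these values were seen. Named were all uncalled members, the 6 with the largest excess per complex, isoform pairs, genes with probe sets on both sides, the 8 largest SDs, members with a sample apart, the 3 nearest the level on each side, the 4 leading called genes per list, all regulators and 3 leading markers per list. Outside this rule, some uncalled markers, further list genes and further members, such as core subunits, were named with their values known. Alternatives were 2 other levels, plain _at probe sets, 1 probe set per gene, quantile normalisation, a floor of 8, plain eBayes and leaving out each replicate.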

Additional observations from a re-analysis of the deposited data

Results flagged for a closer look

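For each member gene's brightest probe set and for the complex medians, 85 sets of 5 values in all, a sample was counted as apart when its gap to the nearest other sample, as a share of the whole range of log2 signals, exceeded the critical value for 5 samples. For a single set of independent, normal values chance gives this about 1 time in 20. The genes share the same 5 arrays, and the complex medians come from the same probe sets. The number of sets that met the criterion therefore cannot be held against that rate. It was met by 10 genes and by none of the complex medians.

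Replicate 1 stood apart for Atp5md, a small membrane subunit of ATP synthase (386 against 1491 to 1624 elsewhere), with a gap of 0.940 of the range. Replicate 5 was the high sample for 4 genes, Atp5o (0.921), Ndufa2 (0.837; 1338 against 872 to 935), Ndufa10 (0.830; 328 against 238 to 251) and Ndufv2 (0.823). Replicate 4 was the low sample for 3, Atp5j2 (0.887), Ndufs5 (0.769; 138 against 236 to 277) and Ndufc1 (0.730; 793 against 1096 to 1236). Replicate 3 was low for Uqcrc1 (0.727) and replicate 2 for Atp5g3 (0.714).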

How the results depend on the processing

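The 73 called member genes were the same 73 under the 90th percentile level, 1 probe set per gene, quantile normalisation, a floor of 8, plain eBayes and without any single replicate. At the stricter level, where 26.4% of all genes were called, 69 of them remained. Assembly factors fell to 10 of 34, regulators to 5 of 16, mitochondrial DNA genes to 4 of 15, citric acid cycle genes to 13 of 22 and restricted isoforms to 0 of 6. This level reversed the sign for Uqcrc1 (-1.13), Cox6b2 (-1.97) and Cox6a2 (-2.56). Cox6a2 also turned without replicate 3 (-0.021), and Cox7a1 at the 90th percentile (0.066); neither was called in any setting. With plain _at probe sets 60 member genes were tested and 50 called, with 53 probe sets, 5 genes of complex III, 7 of complex IV, 8 of glycolysis and 3 widely expressed isoforms, since the other probe sets were left out. The variance test called 0 to 1 members without single replicates, Atp5md without replicate 2. The difference between the highest and lowest sample median was 0.32 log2 units, and 0.14 to 0.32 without single replicates, smallest without replicate 5. The median SD was 0.25 and 0.20 to 0.27. No paired analysis was possible because there was 1 group. Signal over background limits the calls of dim probe sets.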

Other observations

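Medians by sample were also taken for the pathway lists. Assembly factors had medians of -0.04, 0.03, -0.01, 0.10 and 0.05 in replicates 1 to 5, lowest in replicate 1 and highest in replicate 4. The members were lowest in replicate 4 over all probe sets, and over their plain _at probe sets, with -0.08, -0.05, 0.04, -0.00 and 0.20, they were lowest in replicate 1. The list of carriers and channels, with Ndufab1 and Dmac2l in it, had -0.16, -0.09, -0.02, 0.08 and 0.16. Mitochondrial DNA genes had 0.02, -0.14, -0.03, 0.19 and 0.05, also highest in replicate 4. Citric acid cycle genes had -0.11, 0.08, -0.02, 0.02 and 0.06. These differences between lists were not tested.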
